A study of Mus musculus with 8 samples.

Results

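The genes described here are 33 genes of protein folding in the endoplasmic reticulum (ER) and of the unfolded protein response, measured in macrophages grown from mouse bone marrow. They were taken by gene symbol, and all 33 were found among the 18193 genes with a probe set of their own on the array. The list holds 4 sensors and transcription factors of the response, 15 chaperones and folding enzymes, 7 genes of ER-associated degradation, and 7 genes of translocation into the ER and signal peptide removal. Each gene is represented by 1 probe set, the one with the highest mean log2 intensity over all arrays. The macrophages came from wild-type C57BL/6J mice and were grown with L929 cell supernatant, a source of macrophage colony stimulating factor, which was left out when the cells were replated on day 7. For 24 hours they then received 100 ng/ml LPS together with 20 ng/ml IFN-γ (M1, 3 arrays), 20 ng/ml IL-4 (M2, 2 arrays) or media alone (M0, 3 arrays). The labels and the methods both name independent mice, and the methods also speak of replicates in vitro, so every n counts arrays and the spread may be partly technical.

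Proteins bound for secretion or for the cell surface enter the ER through the Sec61 channel, lose their signal peptide, are folded by chaperones and disulfide isomerases, and are sent back to the cytosol for degradation when folding fails. When unfolded proteins build up, the membrane sensors IRE1 (Ern1), ATF6 and PERK (Eif2ak3) start the unfolded protein response. IRE1 splices the mRNA of Xbp1 into one that encodes an active transcription factor, ATF6 is cut to release another, and PERK slows translation while it favours that of Atf4. In macrophages this machinery also carries the load of secreted cytokines and surface receptors.

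The values are RMA intensities on a linear scale, called units, and every difference is a difference of log2 intensity, so that 1 is a 2-fold change. Array medians lay between 38.9 and 40.4 units, and within a condition the arrays correlated at 0.994 to 0.997 on the log2 scale. The log2 difference of the 3′ over the 5′ control probe sets, a sign of RNA integrity, was -0.079 to 0.055 for Gapdh and 0.14 to 0.24 for Actb over the 8 arrays. All 8 macrophage markers looked up were above the array median on every array, and 4 of them were called in each comparison with M0. In M1 Cd68 was at -0.72, Mertk at -0.85, Fcgr3 at -0.96 and Cd14 at 0.89, and in M2 Adgre1 was at -1.08, Mertk at -1.08, Cd14 at -1.66 and Lyz2 at -0.38. The list summed to 74244 to 76001 units on M1 arrays, 56306 to 59725 units on M2 arrays and 77418 to 80139 units on M0 arrays, and its part in the differences of the 33 genes was not tested. Of 5 plasma cell markers, Jchain, Tnfrsf17 and Pou2af1 were below the array median on every array. The summed plasma cell list, in which Sdc1 and Mzb1 rose in M1, was 814 to 1310 units on M1 arrays, 299 to 330.0 units on M2 arrays and 328 to 412 units on M0 arrays.

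Of the 33 genes, 13 changed in M1 or M2 against M0 (39.4%, beside 31.7% of all 18193 genes and 51% of the 9936 genes that averaged above 64 units), and all but 2 of these changes were smaller than 2-fold. These shares do not set the list apart. In M1 macrophages the IRE1 gene Ern1 and the derlin Derl2 rose, and 7 genes fell: Sdf2l1, Calr, Atf6, Herpud1, Pdia6, Sel1l and Creld2. In M2 macrophages Pdia4 rose and Calr, Hspa5, Manf and Derl1 fell. Calr, which encodes calreticulin, was the gene called in both comparisons, lower in each. Both comparisons use the same M0 arrays. The remaining 20 genes were called in neither, and 23 of the 33 genes stayed within 0.5 on the log2 scale of M0 in both conditions. A gene was called at an adjusted p under 0.05 from limma, with Benjamini-Hochberg adjustment over all probe sets. In bulk RNA, fewer cells of a type and less RNA per cell cannot be told apart.

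**Figure D1:**
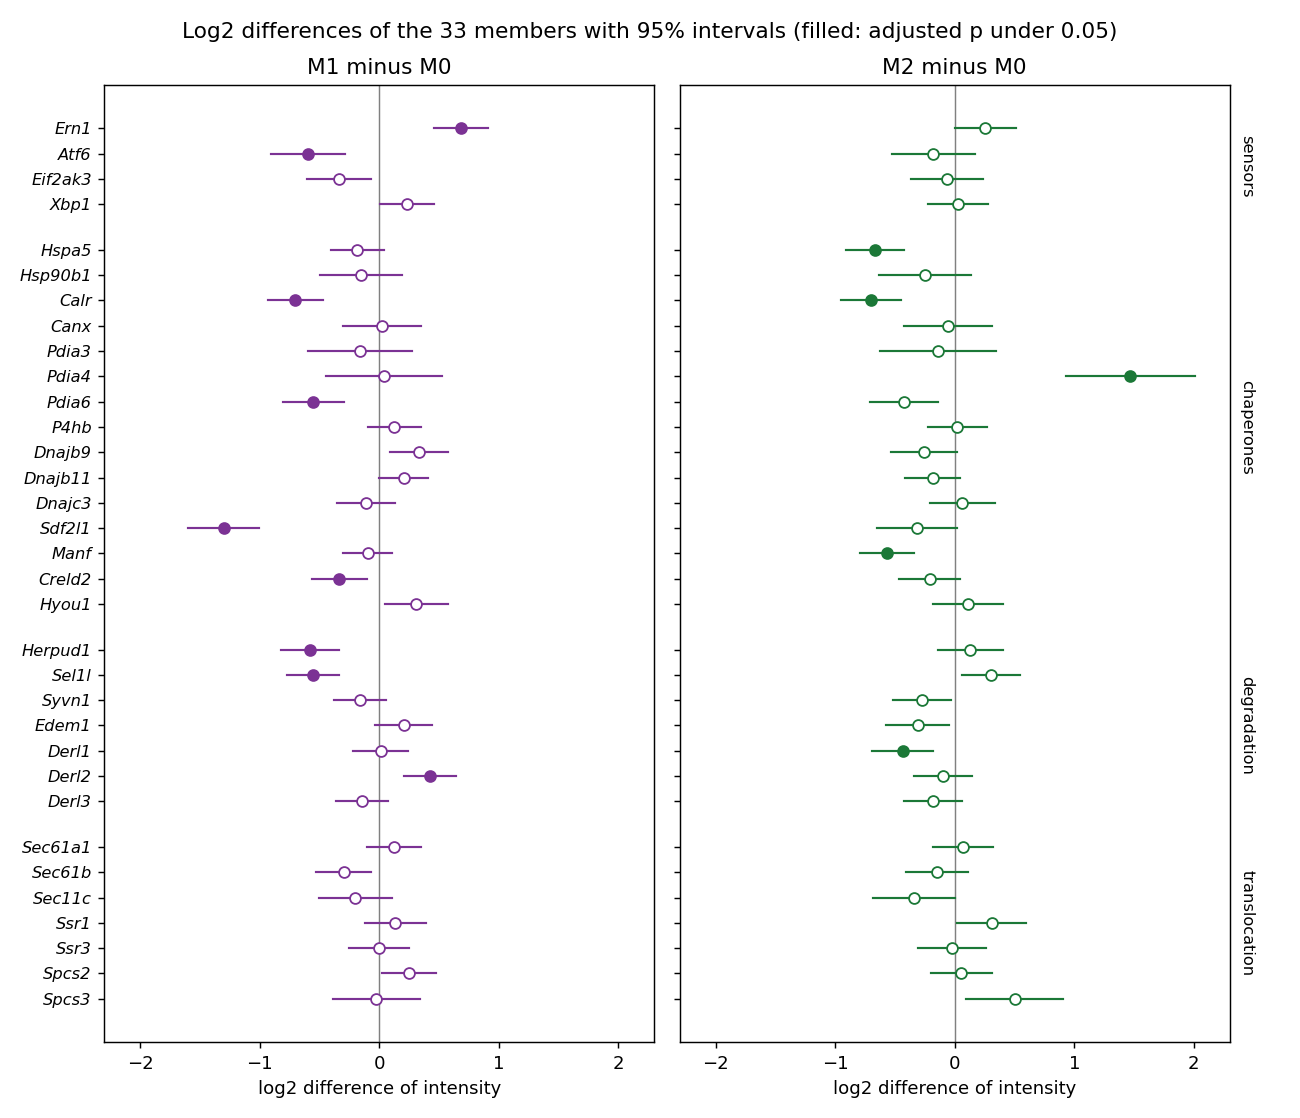
Log2 difference of intensity (x axis) of each of the 33 genes, M1 minus M0 on the left and M2 minus M0 on the right, with 95% intervals from limma, grouped by role; filled points had an adjusted p under 0.05. Sdf2l1 in M1 at -1.30 and Pdia4 in M2 at 1.47 lie farthest from 0, and no translocation gene is filled.

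In M1 against M0, 2 of 33 genes were called higher and 7 lower, 27.3% in either direction. Over all 18193 genes 13.7% were called higher and 11.5% lower, 25.2% in either direction, so the share called among the 33 lay near this background. Among the 9936 genes that averaged above 64 units, a range that holds all 33 probe sets, 40.9% were called. The median difference of the 33 genes was -0.098, against 0.016 over all genes. Without M0 replicate 3 it was 0.0047, while 2 genes were still called higher and 6 lower.

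In M2 against M0, 1 of 33 genes was called higher and 4 lower, 15.2% in either direction, beside 8.03%, 6.43% and 14.5% over all genes and 23.6% of genes above 64 units. The median log2 difference of the members, M2 against M0, was -0.14, beside 0.014 over all genes. It was -0.090 without M0 replicate 3 and -0.070 without M2 replicate 2. With the methods' t-test on log2 values, also adjusted over all probe sets, no gene of the list was called in M2, and 2 higher and 4 lower genes were called in M1.

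The comparison of M1 with M2, which does not use the M0 mean, called more of the 33 genes. Ern1, Hspa5, Dnajb9, Dnajb11, Manf, Edem1, Derl1 and Derl2 were higher in M1, and Pdia4, Sdf2l1, Herpud1 and Sel1l were lower in M1. These are 8 higher and 4 lower genes, 36.4% of the list, beside 11.5%, 12.3% and 23.8% over all genes and 38.1% of genes above 64 units. The median difference was 0.050, against 0.0029 over all genes, and -0.023 without M1 replicate 1. The higher genes numbered 5 without M2 replicate 1 and 4 without M2 replicate 2.

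Among the 4 sensors and transcription factors, Ern1 and Atf6 were called in M1 against M0, and none in M2 against M0. This is 50% and 0%, beside 25.2% and 14.5% of all genes. Among genes above 64 units these shares were 40.9% and 23.6%. Ern1, the kinase and endoribonuclease IRE1, had 628, 646 and 613 units on M1 arrays, 428 and 510.0 units on M2 arrays and 361, 410.0 and 405 units on M0 arrays. All M1 values lay above all others, and both M2 values lay above the M0 values. Ern1 was 1.61-fold higher in M1 than in M0 (log2 difference 0.68, SE 0.10, adjusted p = 0.000431 from limma). In M2 the log2 difference from M0 was 0.25 (adjusted p = 0.207 from limma). The M1 minus M2 difference was 0.43 (adjusted p = 0.021 from limma), called by 1 of the 5 probe sets of Ern1. That call was lost without M1 replicate 1, M1 replicate 2 or M2 replicate 1.

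Atf6, the sensor that is cut in the Golgi to release a transcription factor, had 194, 206 and 284 units on M1 arrays, 329.7 and 274 units on M2 arrays and 320.4, 347 and 355 units on M0 arrays. The M1 values lay below the M0 values, with M1 replicate 3 nearer to them than the other M1 arrays. The log2 difference of M1 from M0 was -0.60 (SE 0.14, adjusted p = 0.00913 from limma). A pair of further probe sets of Atf6 showed the opposite sign in M1, at 0.37 and 0.30 (adjusted p = 0.057 and 0.197 from limma), so the fall rests on 1 of its 3 probe sets. M1 minus M2 was -0.42 by the brightest (adjusted p = 0.0939 from limma). The first of the pair was called higher in M1 than in M2, at 0.54 (adjusted p = 0.0148 from limma).

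Eif2ak3, which encodes PERK, had 223, 191 and 194 units on M1 arrays, 256 and 233 units on M2 arrays and 216, 274 and 284 units on M0 arrays. M1 and M0 overlapped, with a log2 difference of -0.34 (95% interval -0.61 to -0.073, adjusted p = 0.0748 from limma). It was called without M0 replicate 1, at -0.46 (adjusted p = 0.017 from limma). Xbp1, the target of IRE1, had 6122, 6228 and 5957 units on M1 arrays, 4948 and 5662 units on M2 arrays and 4713, 5316 and 5593 units on M0 arrays. Its M1 values all lay above those of the other conditions, with a log2 difference from M0 of 0.23 (95% interval 0.0066 to 0.46, adjusted p = 0.156 from limma). No value here separates its spliced from its unspliced form.

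**Figure D2:**
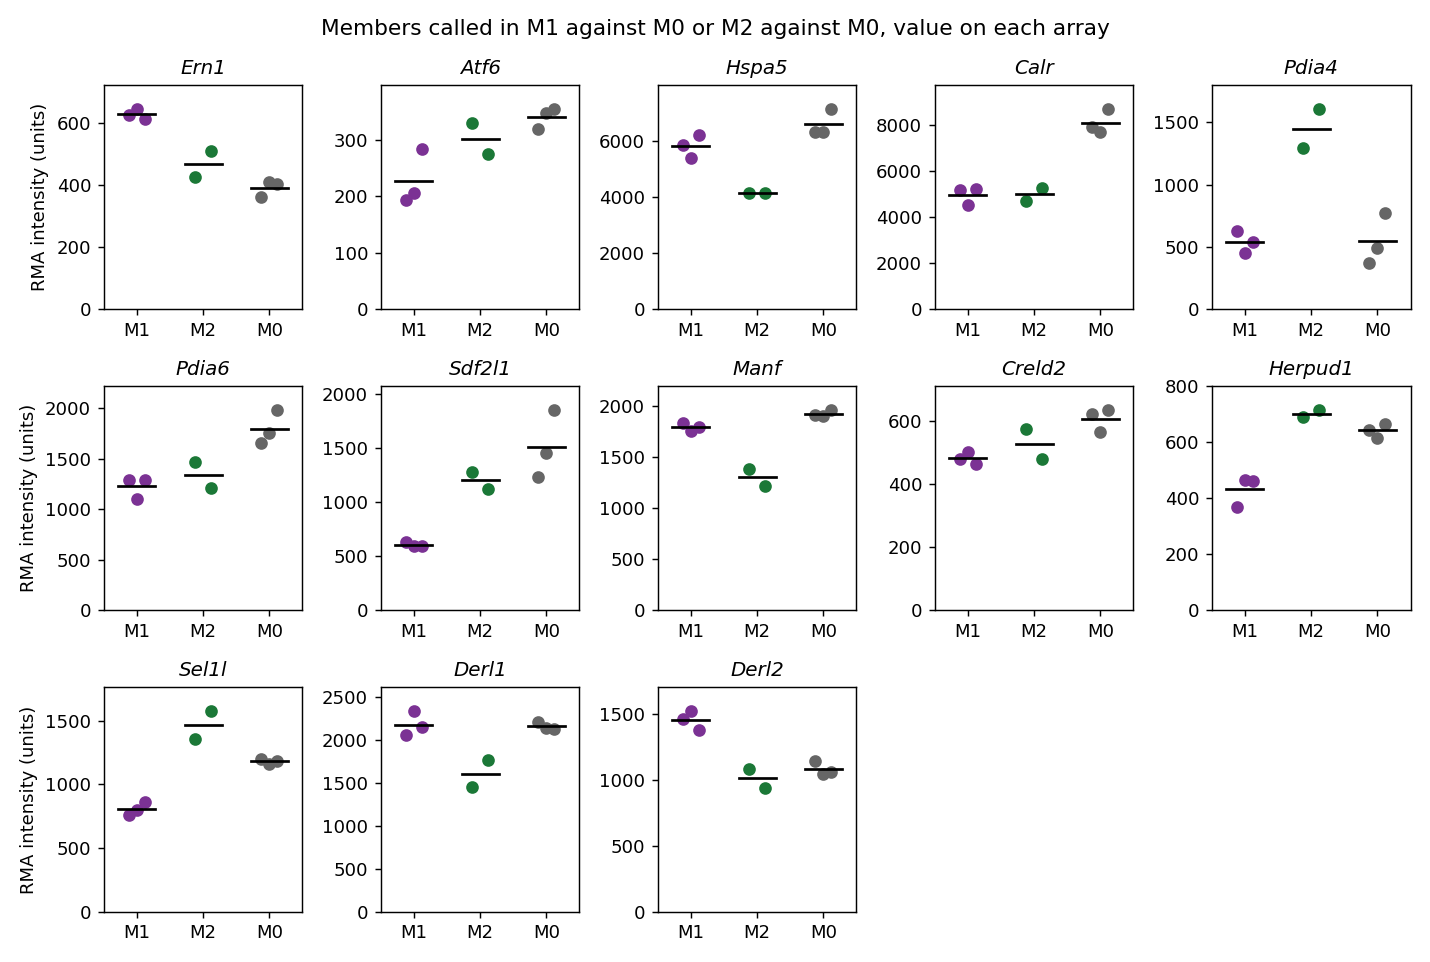
RMA intensity in units (y axis, from 0) on each array for the 13 genes called in M1 or M2 against M0; points are arrays (3 M1, 2 M2, 3 M0) and bars are group means. Sdf2l1 in M1 sits at 591 to 628 units, under every other array, and Pdia4 in M2 sits at 1292 and 1608 units, above every other array.

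Of the 15 chaperones and folding enzymes, 4 fell and none rose in M1 against M0, and 1 rose and 3 fell in M2 against M0. This is 26.7% called in each, beside 25.2% of all genes and 40.9% of genes above 64 units in M1 and 14.5% and 23.6% in M2. The largest fall was that of Sdf2l1, an ER-resident partner of the Hsp40 co-chaperones. It had 628, 591 and 598 units on M1 arrays, 1281 and 1120.5 units on M2 arrays and 1236, 1451 and 1849 units on M0 arrays. The M1 values were tightly grouped and far below both other conditions, which overlapped. Sdf2l1 in M1 was at 0.406 of its M0 level (log2 difference -1.30, SE 0.14, adjusted p = 2.32e-05 from limma), and its M1 minus M2 difference was -0.99 (adjusted p = 0.000511). In M2 its difference from M0 was -0.32 (adjusted p = 0.237). It was the gene of the list to pass the test with a change of at least 2-fold in M1.

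Calr, the lectin chaperone and calcium store calreticulin, had 5172, 4547 and 5237 units on M1 arrays, 4722 and 5257 units on M2 arrays and 7929, 7684 and 8703 units on M0 arrays. The M1 and M2 values overlapped each other and lay well below the M0 values. The log2 differences from M0 were -0.70 in M1 (SE 0.10, adjusted p = 0.00035 from limma) and -0.70 in M2 (SE 0.12, adjusted p = 0.0017 from limma), and the interval of their difference ran from -0.26 to 0.25. Both further probe sets of Calr were called lower in both conditions, at -0.81 and -0.89 in M1 and at -0.71 and -0.71 in M2. Canx, the membrane-bound relative calnexin, had overlapping values in all conditions, with log2 differences from M0 of 0.020 in M1 and -0.057 in M2.

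Hspa5, which encodes BiP, the central Hsp70 chaperone that also holds the sensors inactive, had 5837, 5376 and 6211 units on M1 arrays, 4138 and 4145 units on M2 arrays and 6328, 6315 and 7130.4 units on M0 arrays. Both M2 values lay below every other array. The log2 difference of M2 from M0 was -0.67 (SE 0.11, adjusted p = 0.00185 from limma), that of M1 from M0 was -0.18 (adjusted p = 0.266), and that of M1 from M2 was 0.49 (adjusted p = 0.0084). A second probe set was also called lower in M2, at -0.75. Manf, a small BiP-binding factor that can be secreted, had 1830.1, 1758 and 1796 units on M1 arrays, 1378 and 1220.5 units on M2 arrays and 1910.3, 1895 and 1957 units on M0 arrays. It had the same pattern as Hspa5, with M2 below both other conditions. Its log2 differences were -0.57 in M2 from M0 (SE 0.10, adjusted p = 0.00349 from limma), -0.098 in M1 from M0 (adjusted p = 0.568) and 0.47 in M1 from M2 (adjusted p = 0.00678). The last of these calls was lost without M2 replicate 2, at 0.38 (adjusted p = 0.0658).

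Among the Hsp40 co-chaperones of BiP, Dnajb9 and Dnajb11 were called between M1 and M2 and in neither comparison with M0. Dnajb9 had 1109.8, 962 and 861 units on M1 arrays, 645 and 647 units on M2 arrays and 824, 719 and 775 units on M0 arrays. Its M1 values were all above and its M2 values all below the M0 values. The M1 minus M2 difference was 0.59 on the log2 scale (SE 0.13, adjusted p = 0.00495 from limma), while the differences from M0 were 0.33 in M1 (adjusted p = 0.0559) and -0.26 in M2 (adjusted p = 0.243). Without M1 replicate 3 the M1 minus M0 difference was called, at 0.42 (adjusted p = 0.0249). Dnajb11 had the same order, with 1356 to 1489 units in M1, 1088 and 1103 units in M2 and 1203 to 1297 units in M0, and an M1 minus M2 difference of 0.39 (adjusted p = 0.0194 from limma). That call was lost without M1 replicate 1 or either M2 array, with adjusted p-values of 0.0614, 0.0741 and 0.0814. Dnajc3, also an inhibitor of PERK, did not pass in any comparison, but a pair of its 4 further probe sets fell in M1, at -0.61 and -0.44.

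Of the disulfide isomerases, Pdia4 rose in M2 and Pdia6 fell in M1. Pdia4 had 629, 451 and 540.0 units on M1 arrays, 1292 and 1608 units on M2 arrays and 369, 494 and 772 units on M0 arrays. Both M2 values exceeded every other array, although the M0 arrays spread widely, with the highest at 2.09 times the lowest. Pdia4 was 2.77-fold higher in M2 than in M0 (log2 difference 1.47, SE 0.25, adjusted p = 0.00187 from limma), and M1 minus M2 was -1.43 (adjusted p = 0.0012). Its M1 minus M0 difference was 0.040 (95% interval -0.44 to 0.52). Its other probe set, at 18.4 to 25.1 units below the array median, was not called.

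Pdia6 had 1286, 1106 and 1285 units on M1 arrays, 1468 and 1215 units on M2 arrays and 1657, 1756 and 1979.7 units on M0 arrays. All M1 and M2 values lay below the M0 values. The log2 difference of M1 from M0 was -0.55 (SE 0.12, adjusted p = 0.00426 from limma). That of M2 was -0.43 (95% interval -0.71 to -0.14) with an adjusted p of 0.0534, and it passed without M1 replicate 2, with an adjusted p of 0.0482. The other probe set of Pdia6, at 27.0 to 41.2 units, was not called in M1, at -0.064 (adjusted p = 0.845 from limma), so the fall rests on 1 of its 2 probe sets. Pdia3, the isomerase that works with calnexin and calreticulin, and P4hb, the abundant protein disulfide isomerase, overlapped between conditions. Pdia3 had differences from M0 of -0.16 in M1 and -0.14 in M2, and P4hb of 0.13 in M1 and 0.022 in M2.

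Creld2, an ER-resident protein with isomerase motifs, had 481, 501 and 464 units on M1 arrays, 574 and 479 units on M2 arrays and 621, 567 and 635 units on M0 arrays. The M1 values lay below the M0 values, at a log2 difference of -0.33 (SE 0.10, adjusted p = 0.0397 from limma). This call was lost without any of the 6 M1 and M0 arrays, with adjusted p-values of 0.0552 to 0.138. Hyou1, the nucleotide exchange factor of BiP, had 1456, 1068 and 1229 units on M1 arrays, 1049 and 1113 units on M2 arrays and 1004, 937 and 1066 units on M0 arrays. All M1 values lay above the M0 values, and the difference of 0.31 had an adjusted p of 0.0992 (0.0293 without M1 replicate 2). Hsp90b1, the ER member of the Hsp90 family, had 1668 to 2196 units in M1, 1735 and 1761 units in M2 and 1628 to 2579 units in M0. Its differences of -0.15 in M1 and -0.25 in M2 were small beside its spread within M0.

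Of the 7 genes of ER-associated degradation, Derl2 rose and Herpud1 and Sel1l fell in M1 against M0, and Derl1 fell in M2 against M0. The share called was 42.9% in M1, beside 25.2% of all genes and 40.9% of genes above 64 units. In M2 it was 14.3%, beside 14.5% and 23.6%. Herpud1, a membrane protein that gathers the complex of the ubiquitin ligase Hrd1 (Syvn1), had 368, 464 and 463 units on M1 arrays, 690.4 and 715 units on M2 arrays and 645, 616 and 667 units on M0 arrays. The groups did not overlap, with M1 lowest and M2 highest. Herpud1 in M1 was at -0.58 from M0 (SE 0.11, adjusted p = 0.00225 from limma), and M1 minus M2 was -0.71 (adjusted p = 0.00129). In M2 it was at 0.13 from M0 and not called (adjusted p = 0.605 from limma). Its second probe set was also called lower in M1, at -0.40.

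Sel1l, the adaptor that hands substrates to Hrd1, had 759, 799.9 and 864 units on M1 arrays, 1357 and 1574 units on M2 arrays and 1200.1, 1163 and 1186 units on M0 arrays. Its order of conditions was that of Herpud1, again without overlap. The log2 difference was -0.55 in M1 from M0 (SE 0.10, adjusted p = 0.00156 from limma), 0.31 in M2 from M0 (adjusted p = 0.11) and -0.86 in M1 from M2 (adjusted p = 0.000135). Its 4 further probe sets were not called in M1, at -0.20 to 0.17, and 1 of them rose in M2, at 0.74. Syvn1 itself had 562 to 604 units in M1, 540.2 and 544 units in M2 and 615 to 725 units in M0. Both activated conditions lay below M0, at differences of -0.16 and -0.27 (adjusted p = 0.329 and 0.153 from limma), and its second probe set fell in M2, at -0.52.

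The derlins are multipass proteins of the export channel. Derl2 had 1459, 1519.6 and 1374 units on M1 arrays, 1079.8 and 940.3 units on M2 arrays and 1143, 1040.4 and 1059 units on M0 arrays. Every M1 value lay above every other value. Derl2 was 1.34-fold higher in M1 than in M0 (log2 difference 0.42, SE 0.10, adjusted p = 0.00877 from limma), and its other probe set rose by 0.65. M1 minus M2 was 0.52 (adjusted p = 0.00507), with an adjusted p of 0.0569 without M2 replicate 2.

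Derl1 had 2050.3, 2329 and 2141 units on M1 arrays, 1445 and 1757 units on M2 arrays and 2199.9, 2141 and 2123 units on M0 arrays. M2 lay below both other conditions. The log2 difference of M2 from M0 was -0.43 (SE 0.12, adjusted p = 0.0305 from limma), a call that was lost without any M0 array or M2 replicate 1 (adjusted p-values of 0.0703 to 0.236). M1 minus M2 was 0.45 (adjusted p = 0.0178), and was lost without M1 replicate 2 or M2 replicate 1 (adjusted p = 0.0552 and 0.181). Its 3 further probe sets lay at -0.33 to -0.18 in M2, and 1 of them rose in M1, at 0.37. Derl3 was at 74.5 to 95.8 units on all arrays and did not pass in any comparison.

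Edem1, which helps pick misfolded glycoproteins for degradation, had 2269, 2217 and 1923 units on M1 arrays, 1511 and 1479 units on M2 arrays and 1659.9, 1946 and 1964 units on M0 arrays. The M2 values were the lowest, and those of M1 and M0 overlapped. M1 minus M2 was 0.51 (SE 0.12, adjusted p = 0.00966 from limma), with an adjusted p of 0.0577 without M2 replicate 2. Its second probe set was called lower in both conditions against M0, at -0.42 in M1 and -0.53 in M2, so the 2 probe sets disagreed in sign in M1, where the brighter gave 0.20 (adjusted p = 0.249 from limma). For M1 minus M2 the second probe set gave 0.10 (adjusted p = 0.676 from limma).

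None of the 7 genes of translocation and signal peptide removal was called by its brightest probe set in any of the 3 comparisons. Over all genes the shares called were 25.2% in M1 against M0, 14.5% in M2 against M0 and 23.8% in M1 against M2. Among genes above 64 units they were 40.9%, 23.6% and 38.1%. A count over 7 genes is too small to set this role apart. Sec61a1, the channel itself, had 3767 to 4105 units in M1, 3730.0 and 3974 units in M2 and 3323 to 4017 units in M0, with differences from M0 of 0.12 in M1 and 0.071 in M2. A further probe set of Sec61a1 was called higher in M1 against M0, at 0.45 (adjusted p = 0.0439 from limma). Its others, at -0.051 to 0.43 in M1, were not called. Sec61b, a small subunit of the channel, had its M1 values of 2023 to 2163 units below its M0 values of 2351 to 2839 units, and the difference of -0.30 had an adjusted p of 0.07 (95% interval -0.53 to -0.067, limma). The values of Ssr3, a subunit of the translocon-associated complex, overlapped, with differences of -0.0042 in M1 and -0.022 in M2.

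Of these 7 genes, Spcs3, an accessory subunit of signal peptidase, came closest to a call in M2 against M0 by the brightest probe set. It had 1194, 923 and 1135 units on M1 arrays, 1582 and 1518 units on M2 arrays and 823, 1179 and 1357 units on M0 arrays. The M2 values lay above all others, while the M0 values spread widely. M2 minus M0 was 0.50 (95% interval 0.094 to 0.91, adjusted p = 0.114 from limma), and 0.65 without M0 replicate 3 (adjusted p = 0.043). Its M1 minus M2 difference was -0.52 (adjusted p = 0.0732), and passed without M0 replicate 1 or 3 (adjusted p = 0.018 and 0.0474). Ssr1 was 0.31 above M0 in M2 (adjusted p = 0.174 from limma), and 2 of its 3 further probe sets were called higher in M2, at 0.71 and 0.48. The same 2 were called lower in M1 than in M2, at -0.91 and -0.76. Spcs2 and the catalytic subunit Sec11c had differences of 0.25 and -0.20 in M1 and 0.054 and -0.34 in M2, and neither passed. The other probe set of Sec11c was called lower in M1 against M0, at -0.44 (adjusted p = 0.025 from limma).

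The promoters of these genes were searched for the DNA elements through which ATF6 and XBP1 are known to act. The ER stress response element (ERSE) is CCAAT and CCACG with 9 bases between them, ERSE-II is ATTGG and CCACG with 1 base between them, and the unfolded protein response element (UPRE) is TGACG directly followed by TGG. Both strands of the RefSeq promoter windows were read, 250 bases before to 50 after each start, and 26 of the 33 genes had a window. An ERSE was found in 9 of these 26 (34.6%), against 37 of 27025 genes (0.137%), in Calr, Canx, Creld2, Derl3, Dnajc3, Hsp90b1, Hspa5, Pdia6 and Syvn1, with 2 sites in Hsp90b1. ERSE-II was found in Herpud1 and in Dnajb11, where it lies after the start (7.69%, against 0.0444% of genes), and no gene held both kinds. UPRE was in none of the 26 and in 0.714% of genes. A match of letters is a description and not a bound site. The 33 genes were listed as genes of this response, so an excess over all genes is not an independent result.

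The sites of the 5 genes that were called in M1 or M2 against M0 follow, with Canx, which was close to 0 in both, for comparison. Capitals mark the element with the bases between its parts, read 5′ to 3′ along the gene, so Calr and Creld2 show it in reverse (RefSeq, GRCm38.p6).
Calr (chr8:84847060-84847108, minus strand, ERSE): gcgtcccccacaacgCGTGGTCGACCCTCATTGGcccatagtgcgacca
Hspa5 (chr2:34772010-34772058, plus strand, ERSE): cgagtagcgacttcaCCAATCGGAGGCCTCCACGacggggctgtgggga
Pdia6 (chr12:17266476-17266524, plus strand, ERSE): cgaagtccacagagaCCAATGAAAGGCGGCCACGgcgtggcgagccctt
Creld2 (chr15:88819505-88819553, plus strand, ERSE): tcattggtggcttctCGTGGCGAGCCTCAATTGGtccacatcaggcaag
Herpud1 (chr8:94386362-94386402, plus strand, ERSE-II): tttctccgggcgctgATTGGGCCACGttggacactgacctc
Canx (chr11:50325785-50325833, minus strand, ERSE): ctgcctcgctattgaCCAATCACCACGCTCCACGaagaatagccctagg

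Of the 9 genes with an ERSE, none rose and 3 fell in M1 (Calr, Pdia6 and Creld2), and none rose and 2 fell in M2 (Calr and Hspa5). Their median differences were -0.16 in M1 and -0.25 in M2. Of the 17 genes with a window and no ERSE, 2 rose and 3 fell in M1, and 1 rose and none fell in M2. Their medians were 0.13 in M1 and -0.022 in M2, and Herpud1, with its ERSE-II, is among them. The 7 genes without a window are in neither group: Atf6, Manf, Derl1, Hyou1, Sec61a1, Sec11c and Spcs3. Of these, Atf6 fell in M1, and Manf and Derl1 fell in M2. In Hspa5 the element began 65 bases before the start, and in Calr 162 bases before it. Over all 18193 genes, 13.7% were called higher and 11.5% lower in M1, and 8.03% and 6.43% in M2. Among genes above 64 units these shares were 22.6% and 18.3% in M1, and 13.1% and 10.6% in M2. Of the genes that fell in M1, Creld2 lost its call without any of 6 arrays, and Pdia6 was called by 1 of its 2 probe sets. The difference between genes with and without the element was not tested.

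Of the other genes of the pathway, 112 were measured of 117 listed. In M1 against M0, 37 rose and 9 fell (33% and 8.04%), beside 13.7% and 11.5% of all genes and 22.6% and 18.3% of genes above 64 units. In M2 against M0, 14 rose and 4 fell (12.5% and 3.57%), beside 8.03% and 6.43% of all genes and 13.1% and 10.6% of genes above 64 units. The list with the largest medians was the PERK, ATF4 and CHOP arm, at a median difference of 1.15 in M1 and 1.00 in M2. Of its 9 measured genes, 7 rose in M1 and 9 rose in M2, and none fell in either. With each array left out, 6 to 7 rose in M1 and 7 to 9 in M2. The lists were chosen with earlier results of these data known, so these counts are not an independent result. The transcription factor Atf4 had 4641, 5402 and 5931 units on M1 arrays, 4772 and 5143 units on M2 arrays and 2847, 2597 and 1761 units on M0 arrays. Both activated conditions lay above M0 and overlapped each other. The differences of Atf4 were 1.17 in M1 (SE 0.16, adjusted p = 0.000224 from limma) and 1.07 in M2 (SE 0.18, adjusted p = 0.00201 from limma). RNA levels do not show the translation through which PERK mainly raises ATF4. Eif2ak3, which encodes PERK, was at -0.34 in M1 and -0.065 in M2, called in neither. The list carries the name of a pathway, and what raised its genes was not tested.

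The arm held a part common to M1 and M2 and a part that differed. Trib3, a pseudokinase induced by ATF4 and CHOP, had 1032, 1461 and 1442 units on M1 arrays, 1089.7 and 1311 units on M2 arrays and 498, 355 and 223 units on M0 arrays, and rose by 1.93 in M1 and 1.81 in M2. Ddit3, which encodes CHOP, rose by 1.15 in M1 and by 0.72 in M2 (adjusted p = 7.43e-05 and 0.00914 from limma). Without M2 replicate 1 the M2 difference of Ddit3 was 0.63 and no longer called. Ppp1r15a, the inducible subunit (GADD34) that directs a phosphatase to eIF2α and so lifts the block on translation, had 1025 to 1172 units in M1, 581 and 623 units in M2 and 275 to 338 units in M0. It rose by 1.84 in M1 and 1.00 in M2, and the M1 minus M2 difference of 0.84 passed as well (SE 0.12, adjusted p = 0.000309 from limma). Its constitutive relative Ppp1r15b rose by 1.27 in M1 and 0.59 in M2, and M1 minus M2 was 0.68 (adjusted p = 0.00097 from limma). Without M2 replicate 2 the M2 difference of Ppp1r15b was 0.51 and no longer called.

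Chac1 and Atf3 were higher in M2 than in M1. Chac1, which degrades glutathione, had 137, 209.8 and 237 units on M1 arrays, 356 and 423 units on M2 arrays and 96.5 to 156 units on M0 arrays. It rose by 1.63 in M2 (adjusted p = 0.000506 from limma), its M1 difference of 0.60 had an adjusted p of 0.0598, and M1 minus M2 was -1.03 (adjusted p = 0.00665). Without M2 replicate 2 the M1 minus M2 difference of Chac1 was -0.91 and no longer called. Atf3, a stress-induced transcription factor, had 3415 to 3545 units in M1, 5555 and 5857 units in M2 and 3420.2 to 3564 units in M0. M1 and M0 overlapped at a difference of 0.0026, and M2 stood apart at 0.71 from M0 (adjusted p = 0.000518 from limma). Asns, asparagine synthetase, rose by 0.63 in M1 and 1.14 in M2, and its M1 minus M2 difference of -0.51 had an adjusted p of 0.0705.

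**Figure D3:**
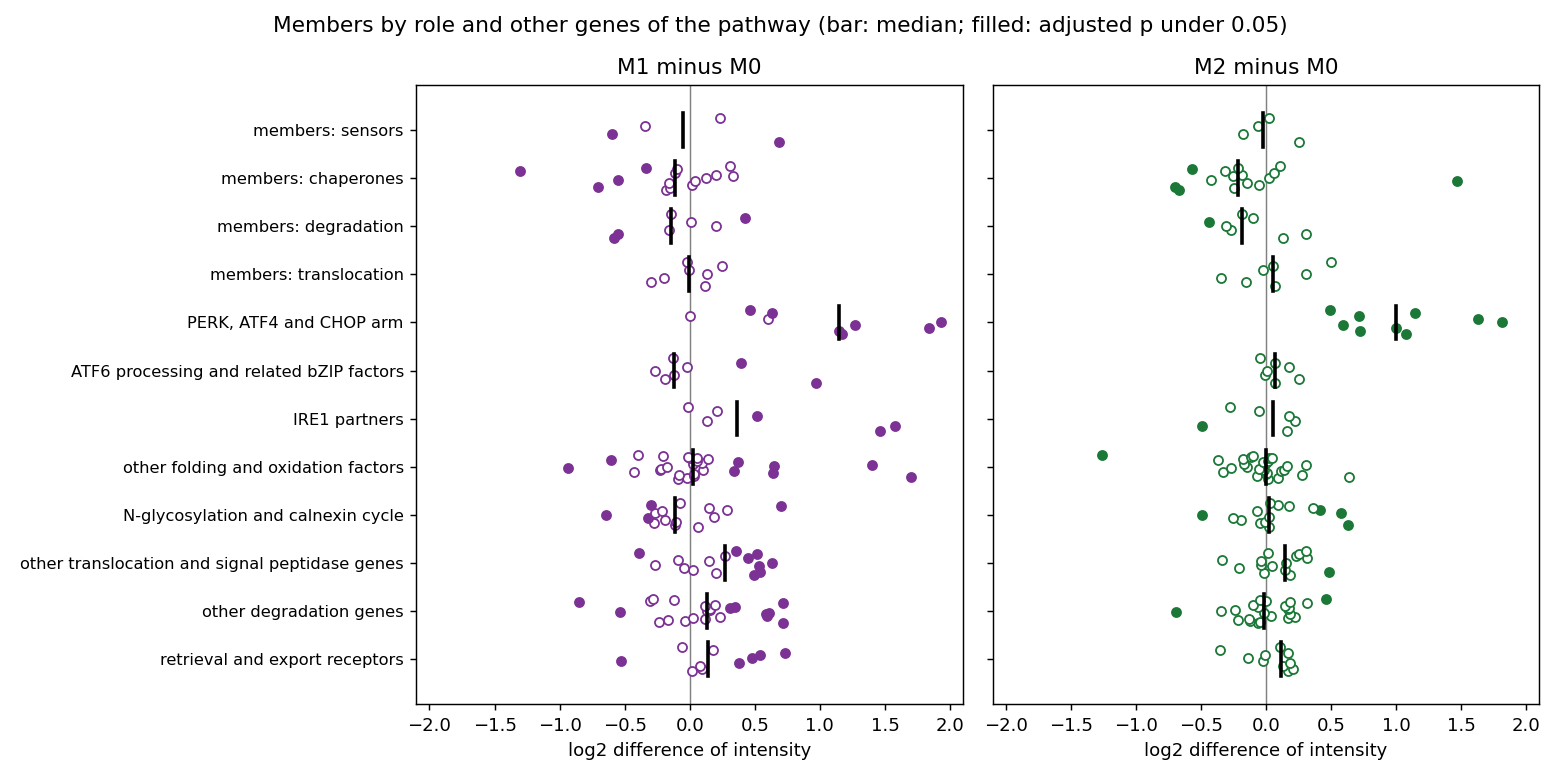
Log2 difference of intensity (x axis) of every measured gene, M1 minus M0 on the left and M2 minus M0 on the right, for the 33 genes by role (upper 4 rows) and the other lists of the pathway; bars are medians and filled points had an adjusted p under 0.05. The PERK, ATF4 and CHOP arm, with medians of 1.15 and 1.00, lies to the right of the 4 roles, whose medians lie between -0.21 and 0.054.

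Of 6 partners of IRE1, 3 rose in M1 and none fell, and in M2 none rose and 1 fell. The share called was 50% in M1, beside 25.2% of all genes and 40.9% of genes above 64 units. In M2 it was 16.7%, beside 14.5% and 23.6%. Mapk8, Tmbim6 and Ern2 did not pass in M1, at 0.13, 0.21 and -0.011 (adjusted p = 0.464, 0.271 and 0.972 from limma). Traf2, the adaptor that IRE1 recruits, had 515, 600.1 and 455 units on M1 arrays, 198 and 227 units on M2 arrays and 214, 183 and 173 units on M0 arrays. It rose by 1.46 in M1 (SE 0.13, adjusted p = 4.98e-06 from limma) and was at 0.16 in M2 (adjusted p = 0.557). Map3k5, the kinase ASK1 that acts after TRAF2, had 307, 308 and 403 units on M1 arrays, 82.0 and 78.2 units on M2 arrays and 99.5, 127 and 114 units on M0 arrays. It rose by 1.58 in M1 and fell by 0.49 in M2 (adjusted p = 3.43e-06 and 0.046 from limma).

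Of 27 other folding and oxidation factors, 6 rose and 2 fell in M1, and none rose and 1 fell in M2. Ero1a, the oxidase that recharges protein disulfide isomerases, had 2910.3, 1845 and 2573 units on M1 arrays, 943 and 1407 units on M2 arrays and 792, 757 and 676 units on M0 arrays. The groups did not overlap, with M1 highest. It rose by 1.70 in M1 (SE 0.18, adjusted p = 2.26e-05 from limma), and its M2 difference of 0.64 had an adjusted p of 0.0573. Dnajc1, a membrane-bound Hsp40 protein, rose by 1.40 in M1, and the selenoprotein Selenom was at -1.26 in M2 (adjusted p = 8.78e-07 and 0.000385 from limma). Other translocation genes rose in 7 and fell in 1 of 15 in M1, while 1 rose in M2. Other degradation genes rose in 7 and fell in 2 of 23 in M1, and retrieval and export receptors rose in 4 and fell in 1 of 10 in M1. For N-glycosylation and the calnexin cycle, 1 rose and 3 fell of 15 in M1, and 3 rose and 1 fell in M2. In the order given, 29.6%, 53.3%, 39.1%, 50% and 26.7% of these lists were called in M1. Over all genes this share was 25.2%, and 40.9% over genes above 64 units. In M2, in the same order, 3.7%, 6.67%, 8.7%, 0% and 26.7% were called, beside 14.5% and 23.6%. Of 7 genes of ATF6 processing and related bZIP factors, 2 rose and none fell in M1 (28.6% called), and none was called in M2.

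Probe sets of the same gene did not always give the same call. The 33 genes had 82 probe sets, and 24 genes had more than 1. Of 15 further probe sets of genes called in M1 against M0, 5 had the same call and 10 were not called, and of 8 in M2 against M0, 3 had the same call and 5 were not called. In M1 against M2, 6 of 17 had the same call and 11 were not called. None was called in the opposite direction in any of the 3 comparisons. Among further probe sets of genes that were not called, 6 of 34 were called in M1 against M0, 5 of 41 in M2 against M0 and 5 of 32 in M1 against M2. Calr was called by all of its probe sets in both comparisons with M0, and Herpud1 and Derl2 by both of theirs in M1. Of the genes with more than 1, Atf6, Pdia6 and Sel1l in M1, and Pdia4 and Derl1 in M2, were called by 1 probe set alone. Ern1 was called by 2 of its 5 in M1 and Hspa5 by 2 of its 3 in M2. In M1 against M2, Ern1, Pdia4 and Edem1 were called by 1 probe set alone.

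**Figure D4:**
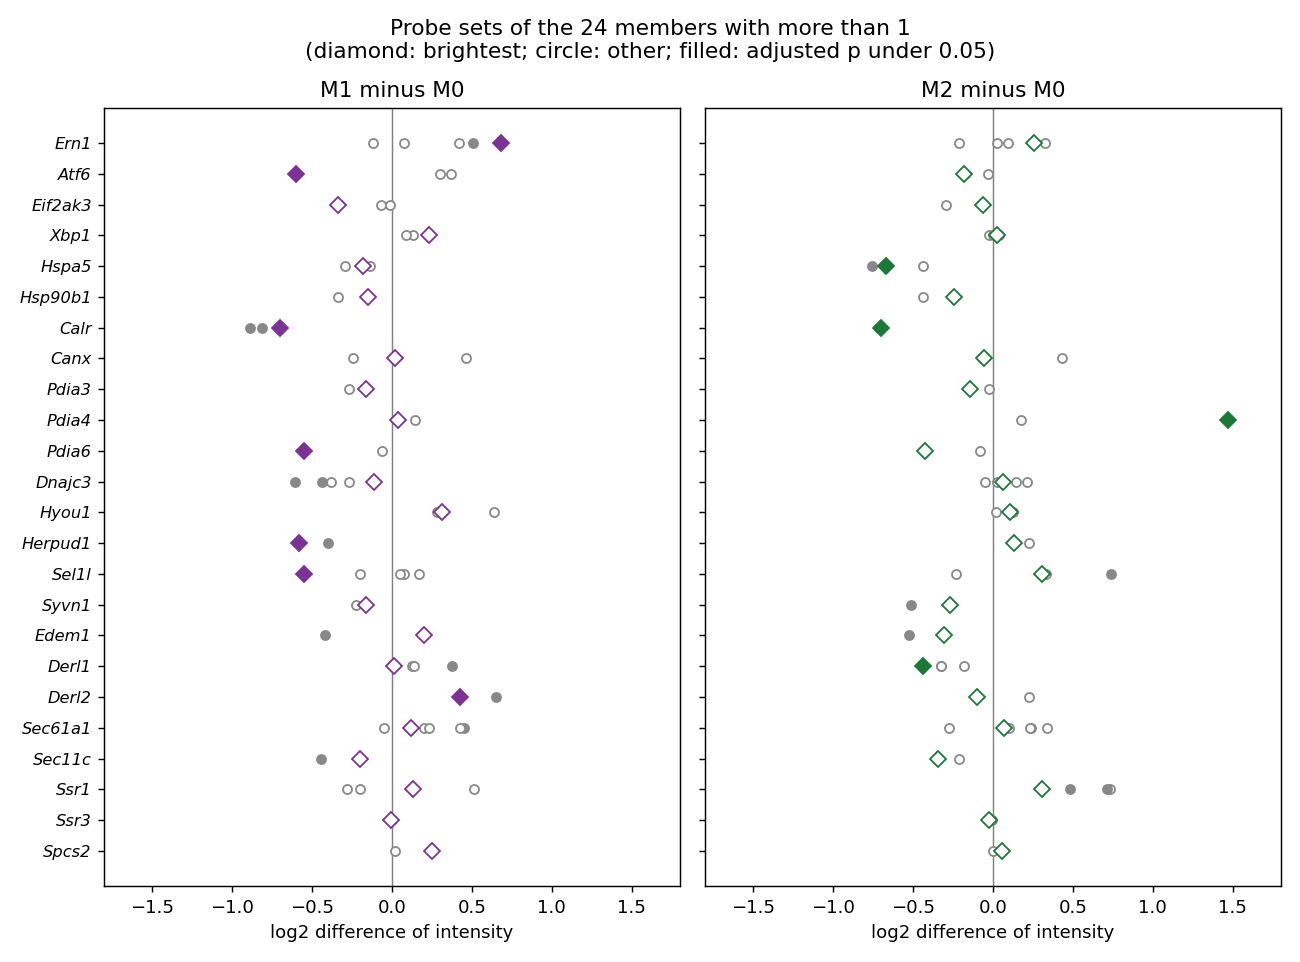
Log2 difference of intensity (x axis) of every probe set of the 24 genes with more than 1, M1 minus M0 on the left and M2 minus M0 on the right; diamonds are the brightest probe set, circles the others, and filled symbols had an adjusted p under 0.05. All 3 symbols of Calr are filled and lie at -0.89 to -0.70 in M1 and M2, while those of Atf6 fall on both sides of 0 in M1.

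Arrays of a condition differed along the list. M0 replicate 3 had the highest of the 3 M0 values for 22 of the 33 genes, against 28.5% of genes above 64 units, and M0 replicate 2 had it for 1 gene. M1 replicate 1 had the highest M1 value for 19 of the 33, against 23.9% of genes above 64 units. In M0 replicate 3, Pdia4 had 772 units against 369 and 494 on the other M0 arrays, Pdia3 had 4649 against 2489 and 3465, and Sdf2l1 had 1849 against 1236 and 1451. On the same array Atf4, Trib3, Asns, Chac1, Ddit3, Ppp1r15a and Ppp1r15b had their lowest M0 values, and the other genes of that arm did not. The median SD of log2 intensity over the 33 genes was 0.117 in M1, 0.120 in M2 and 0.117 in M0, against 0.123, 0.098 and 0.101 over genes above 64 units. M0 replicate 3 also had the lowest 3′ over 5′ value for Gapdh, -0.079. Without it the arm of Atf4 had 6 higher genes of 9 in M1 and 8 in M2, and its medians were 0.96 in M1 and 0.87 in M2.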

How the data were processed

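RNA of 8 macrophage cultures was hybridized to Affymetrix mouse expression arrays. The authors normalized the scans with RMA in GenePattern and deposited intensity values on a linear scale for 45101 probe sets. RMA corrects background, equalizes the distributions of the arrays and summarizes probes, so it can compress differences of dim and very bright probe sets.

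From these values log2 intensities were taken, 64 control probe sets were left out, and 45037 were tested with limma 3.58.1 in R 4.3.3 (lmFit and eBayes, all 8 arrays in a single fit, a mean per condition, 5 residual and 6.95 prior degrees of freedom), with Benjamini-Hochberg adjustment and a threshold of 0.05. The annotation gave 1 symbol to 34945 probe sets, several to 932, and did not list 9160. Precision is limited by the number of arrays, most of all for M2. Arrays with the same number are not stated to share a mouse, and their deviations correlated at -0.17 to 0.055 over 7 pairs, so no pairing was used.

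The members and lists were chosen with earlier results of these data known. All 33 genes are named, and of the other pathway genes those changed at least 2-fold and called, at most 12 per comparison. Atf3, outside this rule, was named after its values were seen. Mapk8, Tmbim6 and Ern2, also outside it, were named beside the other partners of IRE1. Genes of the other pathway lists that were not matched to a probe set with 1 symbol were left out, and counts are over the matched genes. B cell, T cell, neutrophil, dendritic cell, fibroblast and mast cell markers summed to between 81.2 and 357 units on every array. Of these lists, fibroblast markers summed to 214 to 357 units in M1, 178 to 266 in M2 and 154 to 193 in M0, with Dcn called in M1 at 1.18, Camp (neutrophil) was called at 0.56 in M1 and -0.48 in M2, and Cd79b (B cell) at -0.92 in M1. Their part in the results was not tested. M1 markers (Nos2, Il12b, Il1b, Il6, Cxcl9) summed to 12828 to 20035 units in M1, 224 to 355 in M2 and 194 to 220.4 in M0, and M2 markers (Retnla, Chil3, Mgl2, Mrc1, Ccl17) to 162 to 185 units in M1, 25443 to 26074 in M2 and 2089 to 3188 in M0. Protein sequences and C-terminal signals were not analysed here. Alternatives were other tests, scalings, filters, probe sets and thresholds, and each array left out, which for the PERK, ATF4 and CHOP arm was chosen after seeing the data. Scripts were tested on simulated data. Python 3.11.15 with matplotlib 3.10.9 drew the figures.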

Additional observations from a re-analysis of the deposited data

How the results depend on the processing

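The 33 genes were recomputed under 21 alternatives in 3 comparisons, 8 of which left out an array. Of 2079 differences, 1868 kept their direction and side of the threshold, 112 lost the call, 32 gained it and 4 that were called under a setting reversed. The remaining 63, of 1500 that were called under neither setting, had the other sign. With each array left out, M1 against M0 had 2 to 3 higher and 6 to 7 lower genes and a median of -0.11 to 0.0047, M2 against M0 had 1 to 2 higher and 3 to 5 lower genes and a median of -0.18 to -0.070, and M1 against M2 had 4 to 8 higher and 4 to 5 lower genes and a median of -0.023 to 0.086. Of the calls, 8 of 9 in M1 against M0, 4 of 5 in M2 against M0 and 6 of 12 in M1 against M2 held without each array.

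The methods' t-test on log2 values called 4 lower genes in M1 against M0, 0 higher and 0 lower in M2 against M0, and 0 higher and 1 lower in M1 against M2. On linear values it called 3 lower genes in M1 against M0 and 0 in each direction of the other comparisons. A limit of at least 2-fold left 0 higher and 1 lower gene in M1 against M0, 0 lower in M2 against M0, and 0 higher and 1 lower in M1 against M2. A floor of 64 units gave 0 higher genes in M2 against M0 and 5 in M1 against M2, where an adjusted p under 0.01 also left 5. The mean over all probe sets of a gene gave 2 higher genes in M2 against M0. The second brightest probe set gave 0 higher genes and a median of -0.049 in M2 against M0, and 2 lower genes in M1 against M2. In M1 against M0 the second brightest probe set turned the sign of Atf6 (0.30), Sel1l (0.074) and Edem1 (-0.42), and the mean over probe sets that of Atf6 (0.023). Other probe sets measure other stretches of the transcript, and the cause was not tested.

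With a replicate block, M1 against M0 had 2 higher and 6 lower genes, M2 against M0 had 1 and 3, and M1 against M2 had 7 and 5, with medians of -0.098, -0.080 and 0.023. The numbers are not stated to mark shared mice. Among single genes the block ended the calls of Creld2 in M1 and Derl1 in M2 against M0 and of Dnajb11 in M1 against M2, and it added Atf6 in M1 against M2, at -0.52. Without the block, a further probe set of Atf6 was called in the other direction in M1 against M2, at 0.54. All 33 brightest probe sets were above the array median, and the dimmest, that of Derl3, stayed under 96 units.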
